A study of Mus musculus with 2 samples.

Results

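The 38 genes described here act in mitosis, the step of the cell cycle in which copied chromosomes are condensed, attached to the spindle and pulled apart. They were chosen by name from the gene table, all 38 names were found there, and they are 38 of 43437 genes. The samples are RNA from the telencephalon and from the whole body of mouse fetuses at E12.5, both of the outbred ICR stock, wild type and untreated, with 1 library for each. The telencephalon is the foremost brain vesicle and gives rise to cortex and basal ganglia. The labels do not give the sex or the number of the fetuses in a library, nor whether the whole body kept its head, so the whole-body library may hold telencephalon RNA too. The values are FPKM, a fragment count divided by transcript length and by library size, so that a level can be set beside that of a gene of another length. With 1 library for each tissue there is no replicate error, no p-value was computed, and every value describes these 2 libraries.

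Mitosis starts when the kinase Cdk1, bound to a cyclin, becomes active. The chromosomes are compacted by condensin, and the kinetochore, a protein plate on each centromere, takes hold of spindle microtubules. The spindle checkpoint holds the cell until all kinetochores are attached, and the anaphase-promoting complex then marks securin and cyclin B for breakdown, separase cuts the cohesin rings, and cytokinesis splits the cell. In the telencephalon at this stage many dividing cells are radial glia lining the ventricle, whose daughters include neurons that no longer divide.

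None of the mitosis genes differed by more than 2.0-fold between telencephalon and whole body, and the largest differences were in the proliferation marker gene Mki67, the survivin gene Birc5 and the cytokinesis genes Anln and Prc1. Mki67 encodes the Ki-67 protein that coats mitotic chromosomes (chromosome 7, 135689784 to 135716361, minus strand, GRCm38). It had 27.3 FPKM in telencephalon and 54.5 FPKM in whole body. Birc5 (chromosome 11, 117849251 to 117855743, plus strand) had 36.0 FPKM in telencephalon and 68.8 FPKM in whole body. Both stood at close to 50% of the whole-body level, at 50.1% for Mki67 and 52.2% for Birc5. Prc1, which bundles the microtubules of the central spindle (chromosome 7, 80294450 to 80316259, plus strand), lay at the other end with 42.7 FPKM in telencephalon and 28.0 FPKM in whole body, 1.52-fold higher. In bulk tissue, fewer dividing cells and less RNA of a gene per dividing cell cannot be told apart.

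No member was 2-fold higher and none 2-fold lower, counted on FPKM + 1, while 30.5% of the 14987 measured genes (at 1 FPKM or above in telencephalon, in whole body or in both) passed 2-fold, 9.39% upwards in telencephalon and 21.2% downwards. At 1.5-fold, Prc1 alone was higher (17.0% of all measured genes were), and Mki67, Birc5 and Anln were lower (31.6% were), so that 4 of 38 passed in either direction, against 48.6% of all measured genes. Rescaling each library to a common total of length-corrected values (TPM) gave 3 higher and 3 lower, with Racgap1 and Spc25 added to Prc1. The median log2 ratio of FPKM + 1, telencephalon over whole body, was -0.10 over the 38 members and -0.16 over all measured genes. The middle 50% of the members lay between -0.27 and 0.06, and that of all measured genes between -0.82 and 0.34. All 38 had 5 FPKM or more in both libraries, so a filter on low values left out no member. Of the 38 members, 16 had a log2 ratio above 0 and 22 below. Of the 14987 measured genes, 6269 lay above 0 and 8718 below, so the members split much as all measured genes did. The median of the members itself turned to 0.06 in TPM, a scale on which the median of all genes moved by 0.14.

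**Figure D1:**
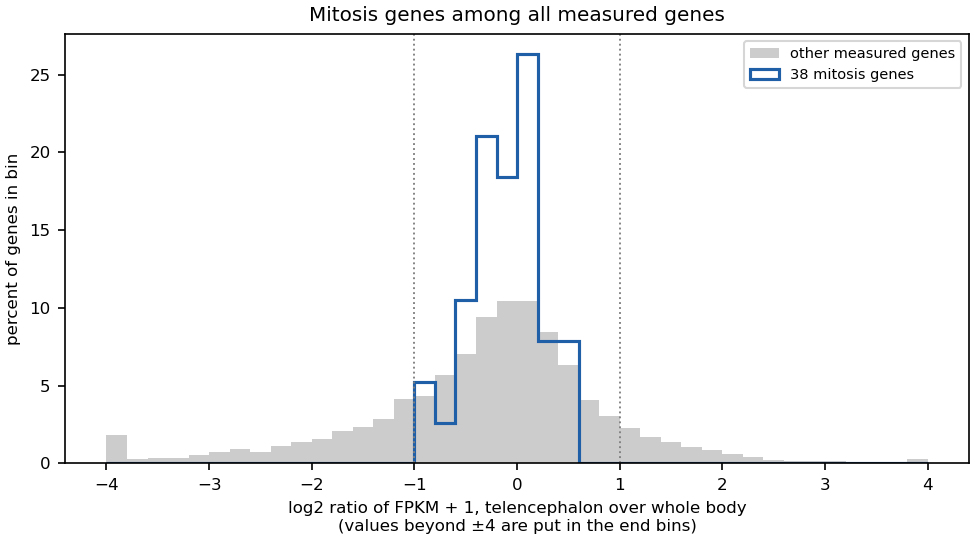
Percent of genes per bin of 0.2 against the log2 ratio of FPKM + 1, telencephalon over whole body, for the 38 mitosis genes (blue outline) and all other measured genes (grey). Dotted lines mark 2-fold; the members lie between -0.97 and 0.59, inside both lines, while the grey bars reach past them on either side.

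The depth behind these values was high enough that counting error is small in the gene totals. The smallest estimate for a member was 257 fragments (Pttg1 in telencephalon) and the largest 15608 (Mki67 in whole body). The 95% interval (exact binomial) was taken of the ratio of FPKM, telencephalon over whole body. It lay below 1 for 19 members, above 1 for 7 and included 1 for 12. More of all measured genes, too, stood lower in telencephalon than higher (8718 against 6269 by log2 ratio). No interval was computed for genes outside the members, so the interval counts cannot be read as particular to mitosis genes. These intervals cover the counting of fragments within these libraries, not the variation between fetuses or preparations. They rest on the fragments of all isoforms of a gene together. Where a short isoform with few fragments holds much of the FPKM, they are too narrow even for counting error. In Cdk1, for example, 28.7 of 93.1 FPKM in telencephalon rested on about 91 fragments. The levels kept nearly the same order in both libraries (Spearman's rho 0.94 over 38 genes, which are not independent replicates). Ube2c, Cdk1, Top2a and Cdc20 held the first 4 places in each. The log2 ratio was not ordered by level (rho -0.02) or by transcript length (rho -0.03).

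**Figure D2:**
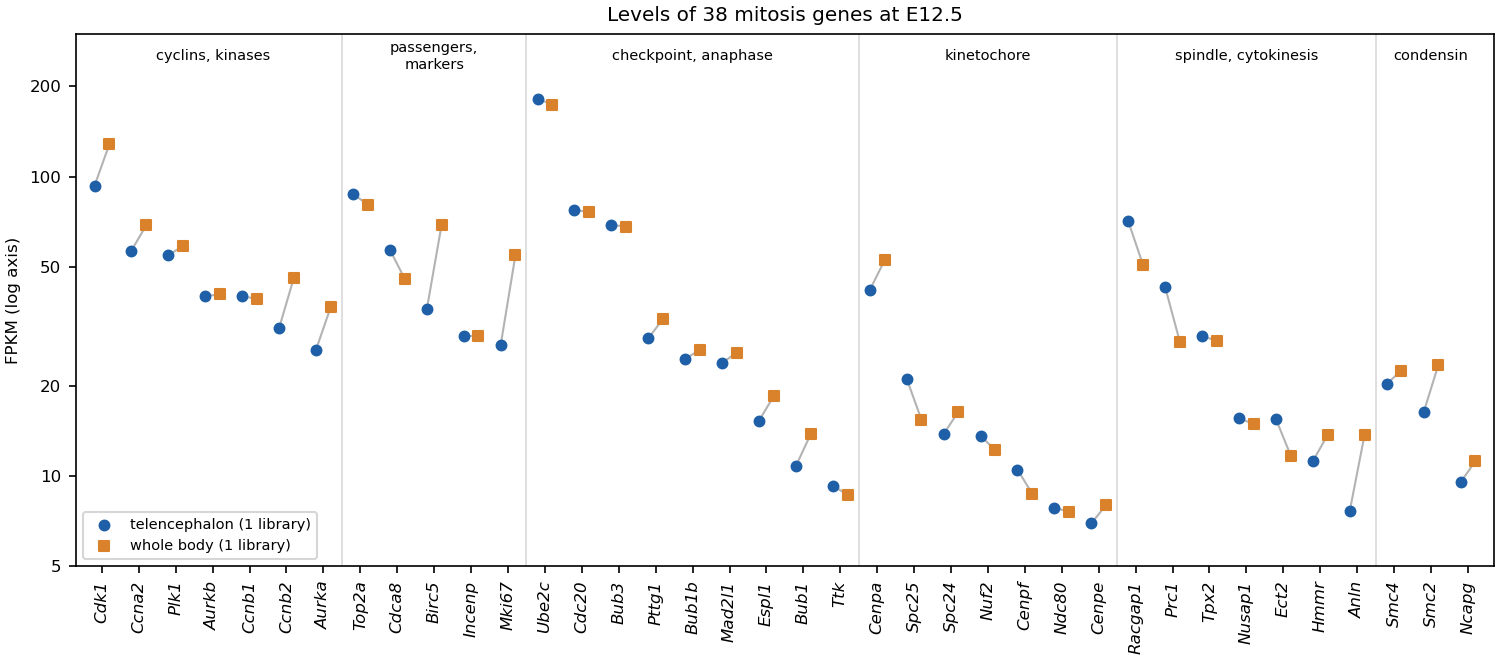
FPKM on a log axis for each of the 38 mitosis genes in telencephalon (blue circles) and whole body (orange squares), 1 library each, grouped by role and ordered by telencephalon level. Most pairs lie close together; Mki67, Birc5 and Anln lie farthest below their whole-body level, and Prc1 and Racgap1 (70.9 against 50.7 FPKM) stand higher there.

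The members share letters in their promoters that the choice of genes did not use. Many genes expressed in G2 and mitosis carry a CHR (cell cycle genes homology region) near the start site, which is read by complexes of MuvB with B-Myb or FoxM1, often with a CCAAT box upstream that binds NF-Y. RefSeq windows of 300 bases, from 250 before to 50 after a start (GRCm38.p6), were matched by symbol for 32 members in 35 windows. The unmatched members are Aurkb, Ccna2, Incenp, Smc4, Spc24 and Tpx2. The CHR letters TTTGAA or TTTAAA, on either strand, occurred in 85.7% of the members' windows (27 of 32 genes), in 27.6% of all 32851 windows and in 19.3% of the 13666 windows of measured genes. The letters CCAAT, on either strand, occurred in 80.0% of the members' windows, 37.4% of all windows and 37.6% of those of measured genes. Both together occurred in 77.1% of the members' windows (24 genes), 10.7% of all windows and 7.65% of those of measured genes. The E2F letters TTTCCCG or TTTGGCG, on either strand, were found in 3 of the members' windows, those of Birc5, Ncapg and Nusap1 (8.57%, against 4.84% of all windows and 7.58% of those of measured genes). Such a match is a description of the letters and does not show that a protein binds there.

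The windows of the genes at both ends of the ratios are shown, chosen by ratio alone. They hold the same pair of letters, as do those of 24 of the 32 matched members. Capitals mark CHR and CCAAT letters on either strand, and no base of these windows lies in more than 1 match.
Prc1 (chr7:80294201-80294500, plus strand): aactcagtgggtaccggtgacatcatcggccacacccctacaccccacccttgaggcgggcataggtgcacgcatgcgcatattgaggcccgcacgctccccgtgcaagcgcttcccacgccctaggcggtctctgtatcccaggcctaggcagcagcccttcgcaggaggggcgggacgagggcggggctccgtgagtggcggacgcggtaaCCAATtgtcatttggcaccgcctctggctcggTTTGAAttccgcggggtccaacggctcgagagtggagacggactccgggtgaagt
Mki67 (chr7:135716330-135716629, minus strand): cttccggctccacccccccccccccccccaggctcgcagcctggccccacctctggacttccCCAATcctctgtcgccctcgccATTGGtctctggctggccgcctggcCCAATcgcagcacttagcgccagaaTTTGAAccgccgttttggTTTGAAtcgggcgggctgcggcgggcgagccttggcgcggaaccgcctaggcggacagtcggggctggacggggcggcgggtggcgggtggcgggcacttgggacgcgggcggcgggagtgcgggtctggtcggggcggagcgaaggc
In the Prc1 window the CCAAT letters lie 37 to 33 bases before the start site and TTTGAA spans -5 to 1. In the Mki67 window 3 CCAAT matches, of which that at -166 to -162 is on the other strand, precede TTTGAA at -116 to -111 and at -98 to -93. Prc1 was the highest and Mki67 the lowest of the 38 by ratio, with both letters in each. The next members at each end with a CHR match are shown as stretches of 60 bases around the match nearest to the start site, chosen after the ratios were known, with the same use of capitals.
Racgap1 (chr15:99651636-99651695, minus strand): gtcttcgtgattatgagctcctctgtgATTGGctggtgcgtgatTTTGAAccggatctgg
Spc25 (chr2:69206174-69206233, minus strand): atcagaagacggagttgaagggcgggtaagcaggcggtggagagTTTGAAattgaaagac
Ect2 (chr3:27153829-27153888, minus strand): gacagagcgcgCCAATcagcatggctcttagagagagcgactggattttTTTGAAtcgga
Birc5 (chr11:117848987-117849046, plus strand): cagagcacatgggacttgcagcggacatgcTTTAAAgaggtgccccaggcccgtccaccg
Anln (chr9:22389170-22389229, minus strand): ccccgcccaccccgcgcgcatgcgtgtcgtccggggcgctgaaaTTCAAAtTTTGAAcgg
Ccnb2 (chr9:70421535-70421594, minus strand): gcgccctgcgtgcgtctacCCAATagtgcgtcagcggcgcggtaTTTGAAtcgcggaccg
The Birc5 match starts at -220, far from the start site. The stretch of Spc25 leaves out the CCAAT letters of its window. Over the whole windows, CCAAT occurred in those of Prc1, Racgap1, Spc25 and Ect2, which stood higher in telencephalon. Of those that stood lower, Mki67 and Ccnb2 had it and Birc5 and Anln did not. The next lower by ratio, Smc2, Cdk1, Aurka, Bub1 and Cenpa, all had it. Of the next higher, Cdca8 and Cenpf had it and Nuf2 did not. Whether these letters go with the direction of the ratio was not tested. The windows of Mad2l1, Nuf2, Pttg1, Bub1 and Nusap1 hold no CHR letters, although the Bub1 window holds CCAAT.

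Among the cyclins and mitotic kinases the A-type and B2 cyclins, Cdk1 and Aurora A stood lower in telencephalon, and cyclin B1, Aurora B and Plk1 differed by less than 1.1-fold. Of these 7 genes none passed 1.5-fold (48.6% of all measured genes did), and their median log2 ratio was -0.28, the lowest of the 6 role groups. Cdk1, the kinase that drives entry into mitosis, had 93.1 FPKM in telencephalon and 128 FPKM in whole body. Cyclin A2 (Ccna2), a cyclin of S phase and G2, had 56.6 FPKM in telencephalon and 68.7 FPKM in whole body. The ratios were 0.725 (95% interval 0.680 to 0.772) for Cdk1 and 0.824 (0.787 to 0.863) for Ccna2. Over coding isoforms alone they stood in the other order, at 0.821 for Cdk1 and 0.751 for Ccna2. An isoform annotated as a target of nonsense-mediated decay held 27.4% of Ccna2 in telencephalon and 19.2% in whole body.

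The B-type cyclins, the partners of Cdk1 in mitosis, changed places. Ccnb2 had 31.2 FPKM in telencephalon and 45.9 FPKM in whole body, and Ccnb1 had 39.8 FPKM in telencephalon and 39.1 FPKM in whole body. Ccnb1 was therefore the more abundant cyclin in telencephalon, at 1.28 times the level of Ccnb2, and the less abundant in whole body, at 0.852 times. Of the stretches of 50 bases in Ccnb1 transcripts, 23.4% also occur in other annotated genes. Of these genes the pseudogene Ccnb1-ps had the most matches. The level of Ccnb1 therefore depends on how such reads were assigned. The pseudogene Ccnb2-ps was listed at 6.76 FPKM in telencephalon and 3.63 FPKM in whole body, although no such stretch of Ccnb2 occurs in another annotated gene.

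The Aurora kinases also differed from each other in ratio, although Aurkb was the more abundant in both libraries. Aurka, which builds the spindle poles, had 26.4 FPKM in telencephalon and 36.7 FPKM in whole body, a ratio of 0.718 (0.662 to 0.779). Aurkb, the kinase of the chromosomal passenger complex, had 39.9 FPKM in telencephalon and 40.4 FPKM in whole body. Plk1, which acts from mitotic entry to cytokinesis, had 54.7 FPKM in telencephalon and 58.6 FPKM in whole body. The interval of the ratio included 1 for Aurkb (0.920 to 1.06) and lay just below it for Plk1 (0.885 to 0.986).

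The chromosomal passenger complex did not move as a unit. It joins Aurkb to the scaffold Incenp, to borealin (Cdca8) and to survivin (Birc5), and it corrects faulty spindle attachments. Incenp had 29.3 FPKM in telencephalon and 29.4 FPKM in whole body. Cdca8 had 57.0 FPKM in telencephalon and 45.6 FPKM in whole body, a ratio of 1.25 (1.17 to 1.34). Birc5 had a ratio of 0.522 (0.473 to 0.577). Cdca8 was the most abundant of the 4 genes in telencephalon and Birc5 in whole body, while Incenp was the least abundant in both. A single coding isoform of 947 bases held 97.2% of Birc5 in telencephalon and 97.1% in whole body, so the difference in Birc5 did not come with a shift between isoforms.

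The pair of widely used proliferation markers did not move together either. Top2a, the topoisomerase that untangles sister chromatids, had 87.6 FPKM in telencephalon and 80.6 FPKM in whole body, a ratio of 1.09 (1.05 to 1.12). Mki67 had a ratio of 0.501 (0.486 to 0.516) on about 6055 fragments in telencephalon and 15608 in whole body. The level of Mki67 was 0.312 times that of Top2a in telencephalon and 0.676 times in whole body. The whole of Mki67 was assigned to 1 isoform of 10061 bases, and 0.668% of its stretches of 50 bases occur in other genes.

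**Figure D3:**
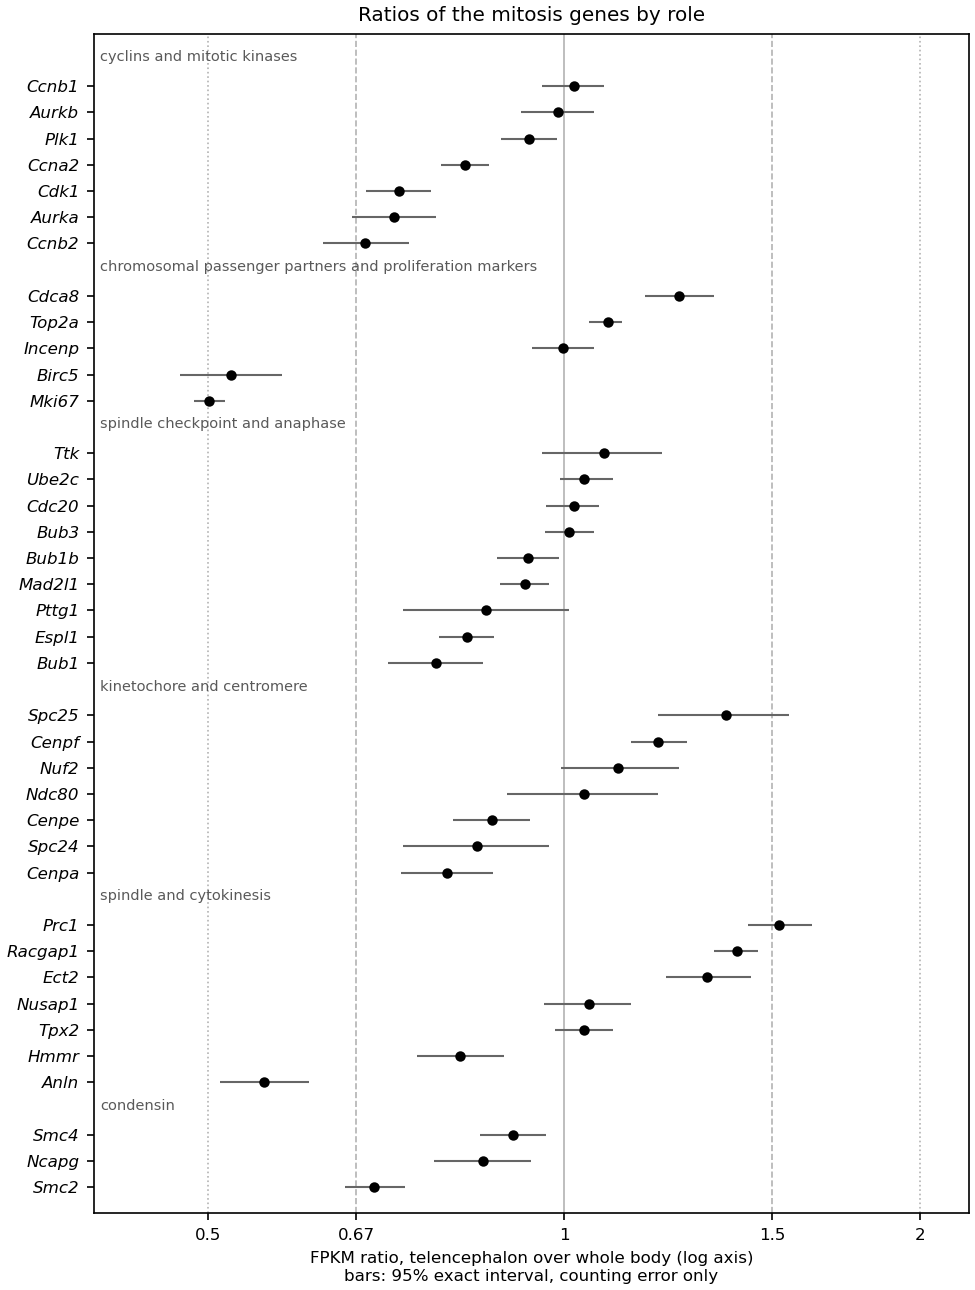
Ratio of FPKM, telencephalon over whole body, on a log axis for the 38 mitosis genes by role, with bars for the 95% interval from the estimated fragments (exact binomial, counting error only). Dotted lines mark 2-fold and dashed lines 1.5-fold; Mki67, Birc5 and Anln lie beyond 1.5-fold lower and Prc1 beyond 1.5-fold higher, and 12 of the bars cross 1.

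The checkpoint and anaphase genes were the most even of the larger groups, with log2 ratios between -0.33 and 0.10 and a summed level of 441 FPKM in telencephalon against 445 FPKM in whole body. None of the 9 passed 1.5-fold, against 48.6% of all measured genes. Ube2c, the ubiquitin-conjugating enzyme of the anaphase-promoting complex, was the most abundant member, with 182 FPKM in telencephalon and 174 FPKM in whole body. Cdc20, which activates that complex and is held by the checkpoint, had 77.4 FPKM in telencephalon and 76.1 FPKM in whole body. Bub3, a checkpoint protein that brings its partners to the kinetochore, had 68.9 FPKM in telencephalon and 68.1 FPKM in whole body. In these 3 abundant genes the levels lay within 1.05-fold of each other. Exons of Ube2c share 22.8% of their bases with exons of the muscle troponin gene Tnnc2, which had 0.121 FPKM in telencephalon and 23.6 FPKM in whole body, and the library kit does not mark strand.

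The other checkpoint genes were less abundant. Bub1b (BubR1) had 24.6 FPKM in telencephalon and 26.4 FPKM in whole body. Mad2l1 (Mad2), which with BubR1, Bub3 and Cdc20 forms the mitotic checkpoint complex, had 23.9 FPKM in telencephalon and 25.8 FPKM in whole body. Ttk (Mps1), the kinase that starts checkpoint signalling, had 9.29 FPKM in telencephalon and 8.64 FPKM in whole body. Within the checkpoint complex Cdc20 was the most and Mad2l1 the least abundant in both libraries, 3.24-fold apart in telencephalon and 2.95-fold in whole body. The kinase Bub1 had 10.8 FPKM in telencephalon and 13.8 FPKM in whole body, a ratio of 0.779 (0.710 to 0.853) and the lowest of the group.

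Securin and separase kept their balance. Securin (Pttg1), the inhibitor destroyed at anaphase, had 28.8 FPKM in telencephalon and 33.5 FPKM in whole body. Separase (Espl1), the protease it holds back, had 15.3 FPKM in telencephalon and 18.5 FPKM in whole body. The level of Pttg1 was 1.88 times that of Espl1 in telencephalon and 1.81 times in whole body. The interval of the Pttg1 ratio included 1 (0.731 to 1.01), and that of Espl1 did not (0.784 to 0.873).

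Among kinetochore and centromere genes Spc25 and Cenpf stood higher in telencephalon and Cenpa, Cenpe and Spc24 lower. No gene of the group passed 1.5-fold, against 48.6% of all measured genes. The group's median log2 ratio was 0.04. Cenpa, the histone H3 variant that marks the centromere, was the most abundant, with 41.8 FPKM in telencephalon and 52.5 FPKM in whole body, although its coding isoforms alone had 14.1 FPKM in telencephalon and 13.3 FPKM in whole body. Cenpf, a large protein of the outer kinetochore, had 10.5 FPKM in telencephalon and 8.72 FPKM in whole body, a ratio of 1.20 (1.14 to 1.27). Cenpe, a kinesin that moves chromosomes to the spindle equator, had 6.94 FPKM in telencephalon, the lowest of all 38 there, and 8.0 FPKM in whole body.

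The Ndc80 complex, the rod of 4 proteins that grips microtubules, was uneven. Ndc80 had 7.84 FPKM in telencephalon and 7.58 FPKM in whole body, and its partner Nuf2 had 13.6 FPKM in telencephalon and 12.2 FPKM in whole body. Spc25 had 21.1 FPKM in telencephalon and 15.4 FPKM in whole body, a ratio of 1.37 (1.20 to 1.55). Its partner at the inner end of the rod, Spc24, had 13.8 FPKM in telencephalon and 16.4 FPKM in whole body, a ratio of 0.843 (0.731 to 0.971). Spc25 was thus the most abundant subunit in telencephalon and Spc24 in whole body, while Ndc80 was the least abundant in both. The interval of the ratio included 1 for Ndc80 (0.894 to 1.20) and for Nuf2 (0.993 to 1.25).

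The spindle and cytokinesis genes held the widest spread of the 6 groups, with log2 ratios between -0.77 and 0.59 and the highest median, 0.06. Racgap1, a subunit of centralspindlin that helps place the cleavage furrow, had 70.9 FPKM in telencephalon and 50.7 FPKM in whole body, a ratio of 1.40 (1.34 to 1.46). Ect2, the exchange factor that centralspindlin recruits to activate RhoA, had 15.5 FPKM in telencephalon and 11.7 FPKM in whole body, a ratio of 1.32 (1.22 to 1.44). The ratio of Prc1 was 1.52 (1.43 to 1.62). Of the 38 members, only Spc25 had a ratio between those of these 3 genes of the central spindle, and none had a higher one than Prc1. Exons of Prc1 share 11.1% of their bases with exons of Rccd1, which had 2.64 FPKM in telencephalon and 2.23 FPKM in whole body.

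Anillin (Anln), the scaffold that ties the contractile ring to the membrane, differed in direction from Prc1, Racgap1 and Ect2. It had 7.64 FPKM in telencephalon and 13.7 FPKM in whole body, a ratio of 0.557 (0.511 to 0.608), from 1 isoform of 4605 bases. The level of Racgap1 was 9.27 times that of Anln in telencephalon. In whole body Racgap1 was also the most abundant of Prc1, Racgap1, Ect2 and Anln, with 4.34 times the level of Ect2, the least abundant there. Kif23, the kinesin partner of Racgap1 in centralspindlin, had 11.7 FPKM in telencephalon and 13.6 FPKM in whole body and so did not share the direction of Racgap1.

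The spindle assembly genes of the group differed less. Tpx2, which activates Aurora A on microtubules, had 29.4 FPKM in telencephalon and 28.2 FPKM in whole body. Nusap1, which binds and bundles spindle microtubules, had 15.6 FPKM in telencephalon and 14.9 FPKM in whole body. Hmmr, a spindle protein also known as a hyaluronan receptor, had 11.2 FPKM in telencephalon and 13.7 FPKM in whole body. The interval of the ratio included 1 for Tpx2 and Nusap1 and lay below 1 for Hmmr (0.750 to 0.890).

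The 3 condensin genes stood lower in telencephalon in FPKM, and in TPM Smc4 did not (log2 ratio 0.02). Smc2 had 16.3 FPKM in telencephalon and 23.5 FPKM in whole body. Smc4, the other arm of the condensin ring, had 20.3 FPKM in telencephalon and 22.5 FPKM in whole body. Ncapg, a regulatory subunit of condensin I, had 9.51 FPKM in telencephalon and 11.2 FPKM in whole body. The group's median log2 ratio was -0.21, and the ratios of Smc2, Ncapg and Smc4 were 0.691, 0.853 and 0.905. None passed 1.5-fold, against 48.6% of all measured genes. Exons of Ncapg share 13.4% of their bases with exons of Lcorl, which had 39.8 FPKM in telencephalon and 12.7 FPKM in whole body.

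The isoform table shows which of these levels rest on a change of isoform. In 30 of the 38 members isoforms annotated as coding held 90% or more of the FPKM in both libraries, and 10 members have 1 isoform in the table. In 5 members (Ect2, Nuf2, Pttg1, Smc2 and Tpx2) the share of an isoform differed by 20 percentage points or more. Isoform shares were not counted over all genes, so these counts cannot be read as particular to mitosis genes. An isoform of Pttg1 of 700 bases had 0.515% of the gene's FPKM in telencephalon and 24.1% in whole body, and an isoform of 741 bases had 50.3% in telencephalon and 26.5% in whole body. For Tpx2, an isoform of 4161 bases had 42.5% in telencephalon and 17.8% in whole body, and one of 3483 bases had 20.4% in telencephalon and 44.9% in whole body. In both genes the total differed by less than 1.2-fold. The most abundant isoform differed between libraries for 3 members, Tpx2, Pttg1 and Ect2, again with no count over all genes beside it. For Pttg1 it was the isoform of 741 bases in telencephalon and one of 696 bases in whole body. The latter had 46.3% in telencephalon and 46.2% in whole body. Isoforms that share most of their exons divide their reads by a model, so such shares have errors that these files do not give.

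**Figure D4:**
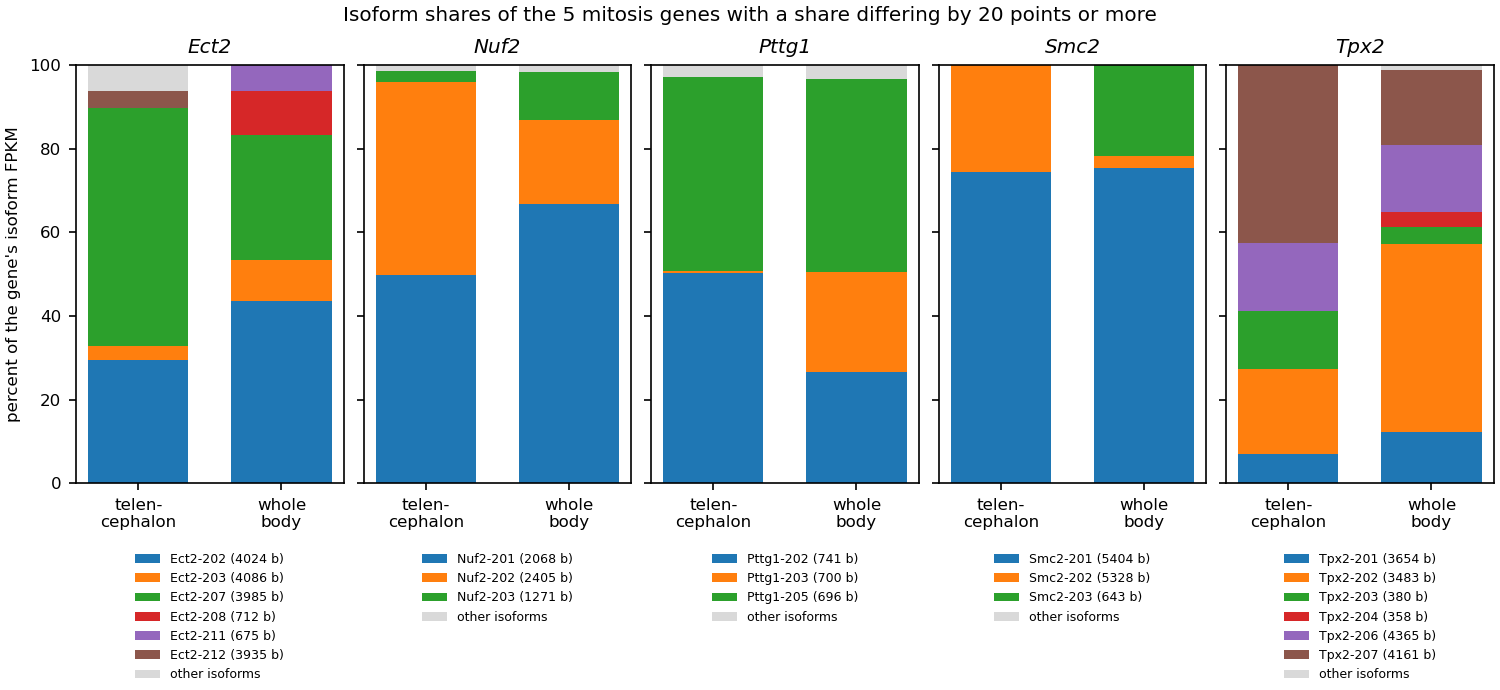
Percent of each gene's isoform FPKM, telencephalon left and whole body right in each panel, for the 5 mitosis genes with an isoform share that differed by 20 points or more (1 library each). Colours are isoforms with 3% or more in either library, with lengths in bases, and grey is the rest; the 643-base isoform of Smc2 fills 21.7% of the whole-body bar and has no visible part in telencephalon.

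For Smc2 the difference was smaller over coding isoforms than over all isoforms. A non-coding isoform of 643 bases had 5.11 FPKM in whole body, 21.7% of the gene, on about 48 fragments, and almost none in telencephalon. Its coding isoforms had 16.3 FPKM in telencephalon and 18.4 FPKM in whole body, a log2 ratio of -0.17 in place of -0.51. For Cdk1, an isoform of 475 bases annotated as a retained intron held 30.9% of the FPKM in telencephalon and 37.5% in whole body, and the coding isoforms had 64.0 FPKM in telencephalon and 77.9 FPKM in whole body. For Smc4, most of the FPKM (77.3% in telencephalon and 64.1% in whole body) was assigned to an isoform annotated as a target of nonsense-mediated decay, and the coding isoforms alone had 4.04 FPKM in telencephalon and 7.38 FPKM in whole body, a log2 ratio of -0.73. For Nuf2, an isoform of 2405 bases had 46.3% in telencephalon and 20.2% in whole body, and for Ect2 one of 3985 bases had 57.0% in telencephalon and 29.9% in whole body. Counting coding isoforms alone, the members past 1.5-fold were Prc1 higher and Mki67, Birc5, Anln and Smc4 lower.

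Other genes of mitosis were counted on a wider set. Lists of further kinesins, kinetochore, checkpoint, entry, spindle and cohesin genes held 132 measured genes that are not members, of which 1 was 2-fold higher (9.39% of all measured genes were) and 5 were 2-fold lower (21.2% were). Their log2 ratios ran from -1.81 to 1.08, with a median of -0.08. The gene past 2-fold higher was Pbk, a mitotic kinase, with 33.1 FPKM in telencephalon and 15.2 FPKM in whole body. The 5 lower were Zwilch, Ccnb1ip1, Gpsm2, Depdc1a and Stag2. Zwilch, a subunit of the complex that loads dynein on kinetochores, had 5.14 FPKM in telencephalon and 12.2 FPKM in whole body. Isoforms under 400 bases, chiefly one of 187 bases, held 66.4% of the whole-body FPKM of Gpsm2, which orients the spindle. For the cohesin subunit Stag2 they held 63.6%, chiefly in one of 294 bases. Without such isoforms the log2 ratios were -0.28 for Gpsm2 and -0.36 for Stag2.

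Within the separate lists the ends were as follows. Over all measured genes 17.0% were 1.5-fold higher and 31.6% lower. The 13 further mitotic kinesins lay between Kif20b, with a log2 ratio of -0.47, and Kif4, a kinesin that binds Prc1, at 0.18, and none passed 1.5-fold. Of 30 further kinetochore genes, 2 were 1.5-fold higher and 5 lower. Zwint, a kinetochore protein also expressed in neurons, led the higher end with 146 FPKM in telencephalon and 85.3 FPKM in whole body, and Ska2 followed (24.4 against 14.6 FPKM). Of 22 further checkpoint and anaphase-promoting complex genes, Bora, an activator of Aurora A and Plk1, was the only one past 1.5-fold, with 5.41 FPKM in telencephalon and 10.5 FPKM in whole body. Ube2s, which extends the ubiquitin chains that Ube2c starts, lay at the other end with 259 FPKM in telencephalon and 185 FPKM in whole body.

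Of 22 genes of mitotic entry, Pbk was the only one past 1.5-fold higher and 3 were past it lower. Here too the shares over all measured genes were 17.0% higher and 31.6% lower. Cdc25b, the phosphatase that switches Cdk1 on, had 34.6 FPKM in telencephalon and 64.6 FPKM in whole body. Foxm1, a transcription factor of G2 genes, had 40.6 FPKM in telencephalon and 28.3 FPKM in whole body. Of 28 spindle and cytokinesis genes, 3 were past 1.5-fold in each direction, with Ckap5, a microtubule polymerase, at the higher end (61.5 FPKM in telencephalon and 38.8 FPKM in whole body). Of 18 condensin and cohesin genes, Wapal, which releases cohesin, was the only one past 1.5-fold higher. Isoforms under 400 bases, chiefly one of 382 bases, held 95.5% of it in telencephalon and 86.1% in whole body, and without them Wapal had 17.7 FPKM in telencephalon and 28.3 FPKM in whole body.

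The tissues differ in the cell types that could carry these RNAs. Markers of neural progenitors, which divide, summed to 1630 FPKM in telencephalon and 1061 FPKM in whole body. Vim alone held 958 FPKM of this sum in telencephalon and 884 FPKM in whole body. Of the 10 markers 7 were at least 2-fold higher (9.39% of all measured genes were), with a median log2 ratio of 1.63. Of the markers of neurons, which do not divide, 9 of 9 were at least 2-fold higher, with a median log2 ratio of 1.77. These summed to 1200 FPKM in telencephalon and 339 FPKM in whole body. Intermediate progenitor markers summed to 170 FPKM in telencephalon and 44.4 FPKM in whole body. Of 7 erythroblast markers all were lower, with sums of 30.9 FPKM in telencephalon and 794 FPKM in whole body. The 7 hepatoblast markers summed to 5.10 FPKM in telencephalon and 2090 FPKM in whole body, the 7 connective tissue markers to 25.4 FPKM in telencephalon and 2028 FPKM in whole body, and the 6 muscle markers to 1.22 FPKM in telencephalon and 553 FPKM in whole body. Apoa2, Serpina1a and Myl7 were listed at 0 in telencephalon. Endothelial markers summed to 21.2 FPKM in telencephalon and 84.6 FPKM in whole body, and macrophage markers to 10.2 FPKM in telencephalon and 48.7 FPKM in whole body. The part of these cell types in the levels of the mitosis genes was not tested.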

How the data were processed

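Polyadenylated RNA was read from TruSeq RNA v2 libraries on a HiSeq 2000, per the labels' protocols. The authors deposited FPKM per gene and per isoform, in 1 column per library. The submitters' processing notes name TopHat, Cufflinks, Cuffdiff and GRCm38 without versions, and the authors' annotation release is not stated in the labels or files. Columns were mapped to samples by the labels' descriptions. The rows of the 38 named genes were taken from the gene table, and positions, lengths and isoform types from GENCODE M21, of the same build. The members and lists were chosen with earlier results of these data known.

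Differences are log2 ratios of telencephalon over whole body after adding 1 FPKM, and a gene was measured at 1 FPKM or more in either library. Folds past 2 and 1.5 were counted, with the share of all measured genes past them. No test was possible with 1 library per group. Depth was estimated from the FPKM steps of single-isoform genes, which gave 22800000 fragments in telencephalon and 29400000 in whole body. The lengths were shortened by 336 and 322 bases. As a check, the fit was repeated on alternate genes and applied to the others, at 2000 bases or more and few fragments. Of their values, 89.8% and 90.9% came out whole within 0.1 fragments, where chance gives 20%. This checks the method, not the printed estimates, which come from the fit to all of these genes. Intervals are exact binomial intervals (Clopper-Pearson, 95%) of these estimates, summed over the isoforms of a gene and scaled to the FPKM ratio. Without molecular identifiers they cover counting error only, and they understate it where short isoforms hold much of the FPKM. Stretches of 50 bases were compared with all annotated transcripts on both strands. Promoter windows are from RefSeq (GRCm38.p6). All 38 members are named. From each other list, the rule took the 2 highest and 2 lowest ratios, of which some are given here. Kif23 and counts of 5 or fewer were named after their values were seen. Protein sequences were not used here, so a planned search for degradation motifs was not run. The counting was tested on simulated fragments with a fixed transcript length and no isoforms, so the intervals of genes with several isoforms were not tested. Python 3.11.15, pandas 2.3.3, scipy 1.17.1 and matplotlib 3.10.9 were used.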

Additional observations from a re-analysis of the deposited data

How the results depend on the processing

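No member passed 2-fold in FPKM + 1 as reported or under any of 9 other settings, nor over coding isoforms alone, a setting chosen after seeing the data. The count past 1.5-fold was 4 in all but TPM, with 6, and coding isoforms, with 5. Mki67, Birc5 and Anln were lower and Prc1 higher past 1.5-fold in each. In TPM the median log2 ratio of the members was 0.06, and the role group medians ran from -0.11 to 0.22, in place of -0.10, -0.28 and 0.06. TPM moved the median of all measured genes by 0.14, and the members lay above it by 0.08, as against 0.06 in FPKM. This is a property of the scale, since TPM divides each library by its own sum. In TPM 6 members changed sign (Aurkb, Incenp, Mad2l1, Plk1, Smc4 and Bub1b), with a common upper quartile 2, with a common median ratio 2, in TPM without small RNA, mitochondrial and the 10 most abundant genes 2, and with coding isoforms 3 (Aurkb, Tpx2 and Cenpa). With no floor the median of all genes was 0.00, so that the members' median lay 0.10 below it. With a floor of 5 FPKM the medians were equal. The share of all measured genes past 2-fold was 10.5% with no floor and 26.9% to 37.2% otherwise. No paired analysis was possible because each group has 1 library. Variation between fetuses cannot be estimated here, and differences of the size of most members' may lie within it.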

Other observations

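Genes of the preceding phases of the cell cycle had a lower median ratio than the mitosis genes. The 22 measured G1/S and S phase genes had a median log2 ratio of FPKM + 1 of -0.37, with 4 at least 1.5-fold lower and none higher, and the 38 mitosis genes had -0.10, with 3 lower and 1 higher. Over all measured genes the median was -0.16, with 31.6% at least 1.5-fold lower and 17.0% higher. The difference between these lists was not tested. Ccne1, the cyclin that starts S phase, had 8.50 FPKM in telencephalon and 42.1 FPKM in whole body, 4.95-fold lower, and Cdc6, which loads the replicative helicase, had 8.56 FPKM in telencephalon and 15.9 FPKM in whole body. Mcm7, a helicase subunit, had 109 FPKM in telencephalon and 104 FPKM in whole body, and Rrm2, a subunit of ribonucleotide reductase, had 70.4 FPKM in telencephalon and 66.2 FPKM in whole body.

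Of 10 genes listed as germline relatives of the members, 3 reached 1 FPKM in either library (Pttg1ip, Stag3 and Rec8). Aurkc, the meiotic Aurora kinase, was listed at 0 in both libraries. Ccna1, the germline A-type cyclin, had 0.857 FPKM in telencephalon and 0.465 FPKM in whole body. Smc1b, Sycp2, Sycp3 and Ccnb3 were listed at 0 in telencephalon and had at most 0.201 FPKM in whole body. Stag3, a meiotic cohesin subunit, had 0.582 FPKM in telencephalon and 2.85 FPKM in whole body. Rec8, another meiotic cohesin subunit, had 1.11 FPKM in telencephalon and 0.219 FPKM in whole body, with 87.2% of the telencephalon value in isoforms under 400 bases and a log2 ratio of -0.09 without them. Pttg1ip, a binding partner of securin that is not a germline gene, had 17.3 FPKM in telencephalon and 44.1 FPKM in whole body.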
